A study of Bos taurus with 8 samples.

Results

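Genes for WNT ligands, for their receptors and for their secreted inhibitors were followed in MIRA-Seq libraries of un-treated bovine dermal fibroblasts. The list holds 38 gene symbols, and every window carrying one of them was taken, whatever its reads. Windows were analysed for 36 genes, namely 16 ligands, 12 receptors (10 frizzled genes with LRP5 and LRP6) and 8 inhibitors. WNT4 and WNT7B were not analysed here. The 36 genes covered 392 windows of 3 kb, with 123 in ligands, 147 in receptors and 122 in inhibitors, out of 902984 windows and 26134 named genes. In MIRA-Seq, sheared genomic DNA is pulled down with a protein pair that binds methylated CpG, so a window with more methylated CpG returns more reads.

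The fibroblasts came from skin biopsies of 4 Holstein and 4 Angus female animals of the same age. Holstein is a dairy breed and Angus a beef breed. Each animal gave 1 culture at passage 5, revived from the freezer and grown in DMEM with fetal bovine serum, an insulin, transferrin and selenium supplement and antibiotics, without any treatment, and each culture gave 1 library, called here by breed and animal number. Spread between libraries is therefore spread between animals, cultures and pull-downs together. A lower level in a window can come from fewer cells carrying methylated DNA or from fewer methylated CpG per cell, and these cannot be told apart.

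WNT proteins are secreted lipid-modified signals. They bind a frizzled receptor, and in the canonical branch also LRP5 or LRP6, which stops the breakdown of beta-catenin and lets it act with TCF and LEF factors on target genes. In other branches frizzled receptors steer cell polarity and movement. SFRP and WIF1 proteins bind the ligands outside the cell, and DKK1 and DKK2 bind LRP5 and LRP6. In skin, WNT signals between dermis and epidermis take part in hair follicle formation and in keeping fibroblasts in their state. Methylation of a promoter is commonly linked to a silent gene, while methylation inside a gene is common in expressed genes too.

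Total reads over all windows lay between 18691111 and 35525554 per library, so that 3 reads in a window stood for 0.0844 to 0.161 CPM, the count scaled to the library total. These floors cover counting error only. Holstein 1 and Angus 3 stood apart, with 69.0% and 72.4% of their reads in the top 1% of windows against 46.8% to 57.4% in the other 6 libraries, and with 24.7% and 21.5% of reads in named genes against 29.96% to 34.1%. Fibroblast marker genes had few reads at their starts, 12 of 13 lying below the all-gene median of 0.395 CPM, against 2 of 8 epithelial and 2 of 9 blood and endothelial marker genes.

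Windows of the WNT genes were covered more often than gene windows at large. Of the 392 windows, 126 (32.1%) reached 1 CPM in 4 or more libraries, against 18.9% of windows in all named genes. The ligands had the largest share, with 65 of 123 windows (52.8%). Receptors had 42 of 147 windows (28.6%) and inhibitors 19 of 122 (15.6%). By mean level, 30 of 32 LRP5 windows and all 22 WNT7A windows reached 1 CPM. In the other long receptor genes it was 0 of 59 in LRP6, 1 of 31 in FZD3 and 1 of 12 in FZD6. The receptor share thus came mostly from LRP5. At the other end, 55 of the 392 windows had no read in at least 1 library.

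Levels differed between the 3 roles, and between the first window of a gene and the rest of it. The first window, by the strand of the gene, was taken in place of the promoter, and it can hold gene body as well. In FZD7, FZD8 and FZD9 it was the only window of the gene. Windows are fixed tiles of the genome, so the start of transcription can lie anywhere in the first window, and levels were not corrected for the CpG content of a window. In ligands, first windows averaged 0.903 CPM ± 0.190 (SD, n = 8 libraries) and the other windows 1.68 CPM ± 0.286. Receptors had the opposite order, with 1.86 CPM ± 0.302 in first windows and 1.12 CPM ± 0.196 in the others. Inhibitors had the lowest means in both, at 0.439 CPM ± 0.117 and 0.562 CPM ± 0.120. The order of first and other windows within each role was the same in all 8 libraries. These means, and the medians below, are over windows, so first and other windows weigh genes differently. FZD5 and FZD9 led the receptor first windows, at 6.11 and 6.21 CPM. LRP6, LRP5 and FZD3, with 59, 32 and 31 windows, held most of the 135 other receptor windows. The other windows of LRP5 averaged 3.59 CPM and raised the receptor mean. Those of LRP6 and FZD3 averaged 0.312 and 0.262 CPM, below the inhibitor mean. Gene by gene, 4 of 9 receptors had a higher first window and 3 a lower one, by the exact sign-flip test below. Over all named genes, first windows averaged 0.895 CPM and the others 0.836 CPM.

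FZD5 and FZD9 held the highest first windows of the receptors, and medians showed the same order for ligands and receptors but not for inhibitors. The median first window was 0.517 CPM in ligands, 1.14 CPM in receptors and 0.406 CPM in inhibitors. The median of the other windows was 1.16 CPM in ligands, 0.351 CPM in receptors and 0.339 CPM in inhibitors, so for inhibitors the first windows were then the higher ones, in 6 libraries, with 1 library level and 1 the other way. The breeds overlapped in every role. First windows averaged 0.917 CPM ± 0.214 in Holstein and 0.889 CPM ± 0.196 in Angus for ligands, 1.78 CPM ± 0.334 and 1.93 CPM ± 0.294 for receptors, and 0.462 CPM ± 0.136 and 0.416 CPM ± 0.111 for inhibitors (SD, n = 4 each).

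Around the gene start the means of the receptors stood out. The window just upstream of receptor genes averaged 0.492 CPM ± 0.138, the first window 1.86 CPM and the next one inside the gene 1.55 CPM ± 0.310 (SD, n = 8 libraries). Ligands climbed from 0.731 CPM ± 0.170 upstream to 0.903 and then 1.38 CPM ± 0.281. All named genes went from 0.620 to 0.895 and 0.953 CPM. By medians over genes, receptors had 0.416, 1.15 and 0.746 CPM at these positions, and ligands 0.547, 0.489 and 1.08 CPM. The median receptor thus lay below the median ligand in the window after the first. The receptor values at the second position come from 9 genes only, since FZD7, FZD8 and FZD9 end within the first window.

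**Figure D1:**
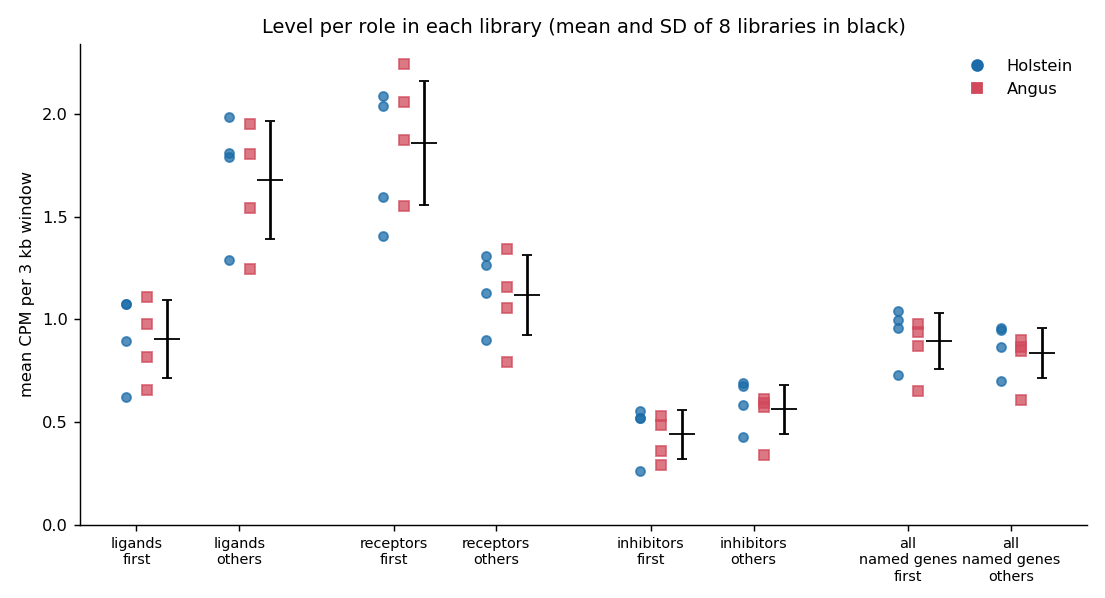
Mean CPM per 3 kb window of the first and the other windows of ligands, receptors, inhibitors and all named genes, with 1 point for each of the 4 Holstein and 4 Angus libraries and the mean and SD of 8 libraries in black. Ligands rose from 0.903 to 1.68 CPM between first and other windows, receptors fell from 1.86 to 1.12 CPM, and the breeds overlapped in every column. Genes with more windows weigh more in the other windows.

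Each gene's first window was then compared with the mean of its other windows within each library, by an exact two-sided sign-flip permutation test over the 8 libraries, adjusted over all 20728 genes tested and called at an adjusted p under 0.1. Of 33 WNT genes with more than 1 window, 18 had a lower first window and 8 a higher one. In all genes tested 52.8% were lower and 24.4% higher, so the numbers for the WNT genes were near those of genes at large. Among ligands 11 of 16 were lower, among receptors 3 of 9 and among inhibitors 4 of 8. The smallest p that 8 libraries allow is 0.0078, which became 0.0133 after adjustment.

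WNT11, a ligand of cell movement in the embryo, had the lowest first window relative to the rest of the gene among ligands. Its first window had 0.0506 CPM in the lowest library, 0.291 in the median and 0.416 in the highest, and its other 6 windows averaged 1.34, 2.00 and 2.28 CPM in the same terms. The 2 ranges did not overlap, and the ratio of means was 7.52 (adjusted p = 0.0133, exact sign-flip test). The first window of WNT11 held no coding exon.

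WNT9B and WNT2B followed, with other windows 5.91 and 5.72 times the first. WNT9B, a signal of kidney and facial development, had first and other levels of 0.498 CPM ± 0.207 and 2.94 CPM ± 0.740 (SD, n = 8). WNT2B had 0.196 CPM ± 0.0925 and 1.12 CPM ± 0.210. In WNT8B, WNT10B, WNT2, WNT7A and WNT5A the ratio lay between 2.59 and 4.27, in WNT6 it was 2.07 and in WNT3 1.88, with the first window lower in 8 of 8 libraries for each of these 7 genes. WNT3A, the classic canonical ligand, was called at 0.757 CPM ± 0.192 against 0.900 CPM ± 0.120, but only in 7 of 8 libraries (adjusted p = 0.0726, exact sign-flip test). That call was lost when any of 6 libraries was left out, with adjusted p from 0.103 to 0.140, and the median of the other windows lay below the first window.

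WNT10A and WNT16 were the ligands with a higher first window. WNT10A, a ligand needed for teeth, hair and other skin appendages, had 1.21 CPM in the lowest library, 1.49 in the median and 1.74 in the highest in its first window, and 0.759, 1.20 and 1.53 CPM in its other windows. These ranges overlap, yet the first window was higher in 8 of 8 libraries (adjusted p = 0.0133, exact sign-flip test). With the second window left out the difference turned to -0.0692 CPM. WNT16, a ligand known from bone, was low throughout, at 0.481 CPM ± 0.169 and 0.281 CPM ± 0.0629.

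WNT9A and WNT5B were high in both places and did not pass the test. The first window of WNT9A, at chr7:3068646-3071645 of UMD v3.1 and holding coding exon 1, had the highest first-window level of all ligands, with 2.60 CPM in the lowest library, 4.09 in the median and 6.26 in the highest. Its only other window averaged 4.38 CPM ± 0.743. In WNT5B, first and other windows had 2.44 CPM ± 0.722 and 2.26 CPM ± 0.480. WNT1, a signal of the midbrain and the neural crest, was low in both windows at 0.395 CPM ± 0.162 and 0.480 CPM ± 0.224 and did not pass either.

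In most ligand genes with at least 3 windows the highest window was the last one, at the 3′ end. This held in every ligand with 3 to 5 windows, namely WNT9B, WNT10B, WNT10A, WNT6, WNT5B and WNT16. Of the longer ligands, WNT2, WNT3 and WNT3A peaked in the last window, and WNT2B, WNT5A, WNT7A and WNT11 did not. Among the 13 ligands with at least 3 windows, the window with the highest mean CPM was the last one in 9, the window of the last coding exon in 10 and the first window in 0. In all 16983 named genes with at least 3 windows the highest window was the last in 19.4% and the first in 12.1%. In genes with 3 to 22 windows, the span of these ligands, these shares were 22.7% and 14.4%, without matching for gene length within that span. The highest window held the last coding exon in 21.2% of all these genes and in 24.2% of those with 3 to 22 windows. The pattern was noticed in these data and is given as a count without a test. It stood at 9 of 13 without Holstein 1 and Angus 3 as well, an alternative chosen here after seeing the data. In receptors the last window was highest in 0 of 4 genes and in inhibitors in 1 of 7.

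WNT3, a canonical ligand, showed it most clearly. Its last window, the 17th of the gene at chr19:46069675-46072674 with coding exon 3, had 4.65 CPM in the lowest library, 6.10 in the median and 7.88 in the highest. The window just before it had 0.445 CPM and the median window of the gene 0.962 CPM. The last window was the highest of the gene in 8 of 8 libraries and lay at the 99.2 percentile of all windows.

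WNT9B, WNT10A, WNT10B and WNT6 also had their highest window at the end in 8 of 8 libraries. The means were 4.63 CPM ± 1.16, 2.69 CPM ± 0.767, 1.79 CPM ± 0.407 and 1.66 CPM ± 0.553 (SD, n = 8). In WNT3A, WNT2, WNT5B and WNT16 the last window was highest on average and in 7, 6, 5 and 5 of 8 libraries. WNT2 had the steepest rise of these, its last window standing at 9.73 times its first.

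WNT5A, the main non-canonical ligand and one that fibroblasts commonly make, peaked 1 window earlier. Window 6 of 7, at chr22:46109667-46112666 with part of the last coding exon, had 3.89, 5.48 and 6.21 CPM in the lowest, median and highest library, against 0.172 CPM in window 3. It was the highest in 8 of 8 libraries. The first window of WNT5A had 0.623 CPM ± 0.280.

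WNT7A, a ligand of the epidermis and of limb patterning, was covered over its whole length. All 22 of its windows had a mean of at least 1 CPM, the lowest being the first window at 1.13 CPM ± 0.220. The highest, window 8 with coding exon 3, had 4.10, 5.79 and 7.86 CPM in the lowest, median and highest library, and it was the highest of the gene in only 5 of 8 libraries. Which window of WNT7A was highest thus changed between libraries.

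**Figure D2:**
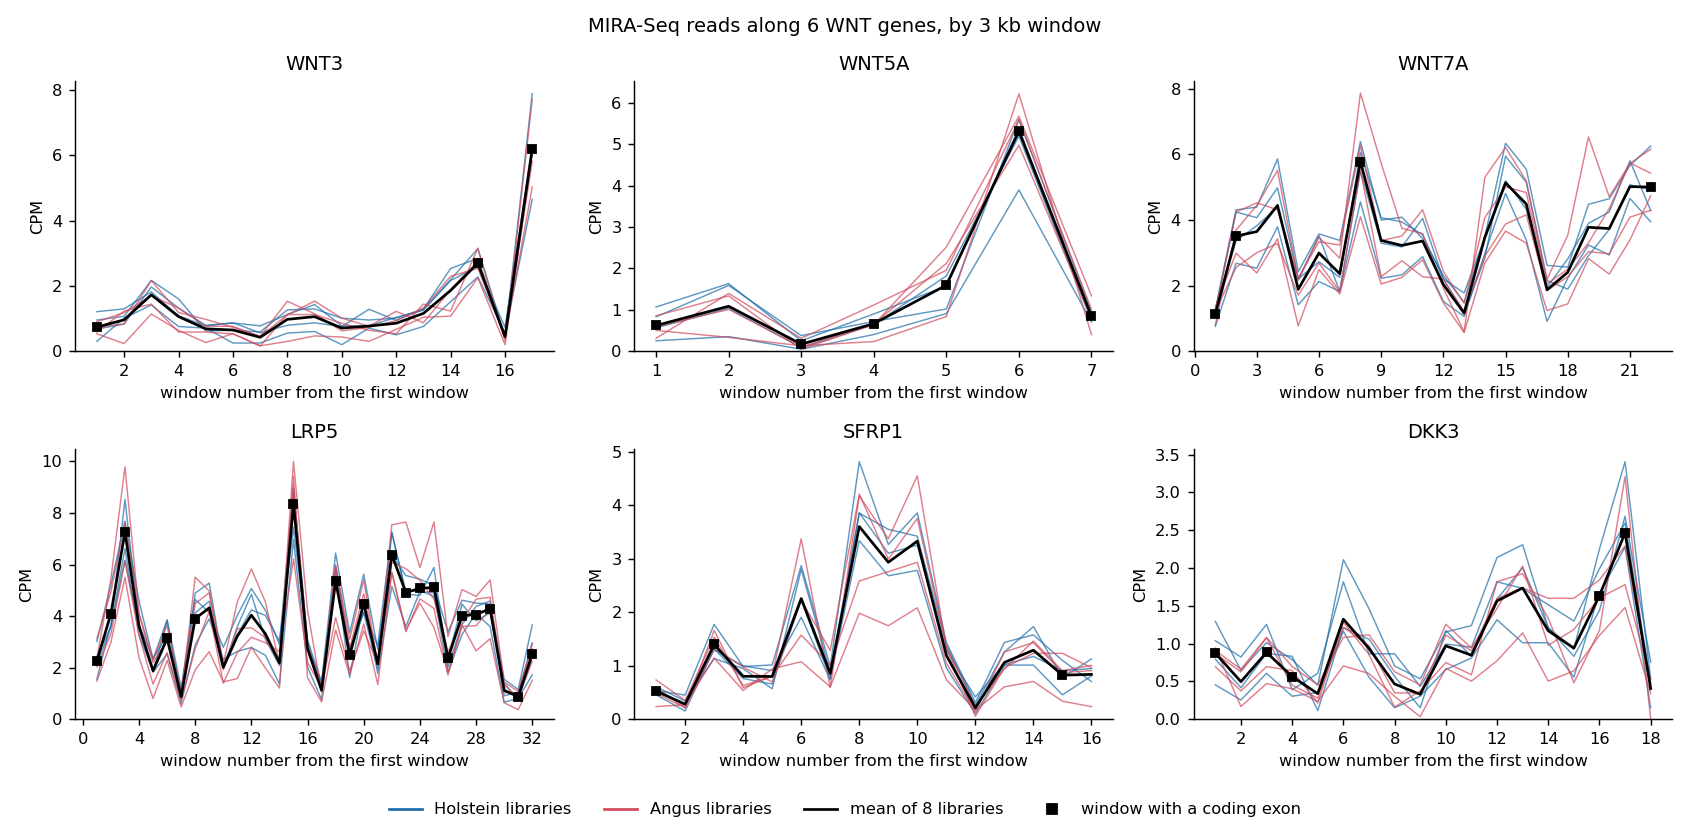
CPM in each 3 kb window against the window number counted from the first window, for WNT3, WNT5A, WNT7A, LRP5, SFRP1 and DKK3, with 1 line per library (Holstein blue, Angus red), the mean in black and squares on windows that hold a coding exon. WNT3 peaked in its last window at 6.19 CPM, WNT5A in window 6 at 5.31 CPM and LRP5 in window 15 at 8.36 CPM, while the SFRP1 peak in windows 8 to 10 held no coding exon.

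In ligands and receptors, windows with a coding exon had more reads than the rest of the gene. Leaving first windows out, ligand windows with a coding exon averaged 2.08 CPM ± 0.313 (SD, n = 8 libraries) and those without 1.43 CPM ± 0.278. Receptors had 1.90 CPM ± 0.313 against 0.643 CPM ± 0.143, where most windows over 1 CPM were those of LRP5. In inhibitors the gap was smaller, with 0.632 CPM ± 0.119 against 0.545 CPM ± 0.121. These SDs are between libraries, which both kinds of window share, so they do not give the spread of the gap. In all named genes the values were 1.11 and 0.718 CPM. The median windows with and without a coding exon had 1.66 and 0.911 CPM in ligands, 0.557 and 0.294 CPM in receptors and 0.384 and 0.322 CPM in inhibitors, so by medians the gap in CPM was widest in ligands. Of 24 WNT genes with at least 3 windows, the highest window held a coding exon in 19, and in all such genes the share was 66.1%.

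4 pairs of ligand genes lie side by side in the genome, and in each pair 1 gene had the higher level in 8 of 8 libraries, all windows averaged. WNT9A had 4.23 CPM ± 0.794 and WNT3A 0.892 CPM ± 0.118, with 66.0 kb between them on chromosome 7. WNT10B had 1.21 CPM ± 0.342 and WNT1 0.438 CPM ± 0.168, 3.0 kb apart on chromosome 5, and the window between them had 0.314 CPM. WNT9B had 2.13 CPM ± 0.502 and WNT3 1.35 CPM ± 0.245, 42.0 kb apart on chromosome 19. WNT10A had 1.23 CPM ± 0.244 and WNT6 0.709 CPM ± 0.190, 6.0 kb apart on chromosome 2. Neighbouring pairs of other genes were not compared, so this is not given as a trait of WNT pairs.

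The frizzled genes, most of which fill 1 or 2 windows, split into opposite patterns. FZD5 and FZD2 had the reads in the first window, and FZD1 and FZD4 in the second. FZD5, a receptor used by WNT5A and WNT7A, had 4.96, 6.09 and 7.32 CPM in the lowest, median and highest library in its first window at chr2:96470534-96473533, and 0.201, 0.597 and 0.908 CPM in the second. The first window stood at 10.97 times the second, and the ranges were far apart (adjusted p = 0.0133, exact sign-flip test).

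FZD2 had 1.21, 1.59 and 2.43 CPM in the first window and 0.0506, 0.252 and 0.348 CPM in the second, in the lowest, median and highest library. The ratio of means was 7.58, and the ranges did not overlap. FZD1 was the reverse, with 0.134, 0.411 and 0.568 CPM in the first window and 2.83, 4.08 and 7.12 CPM in the second, a ratio of 10.9. Both windows of FZD1 held its coding exon 1.

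FZD4, a receptor of retinal vessel growth that also binds the non-WNT ligand norrin, had 0.0378, 0.188 and 0.419 CPM in its first window and 1.14, 2.56 and 3.05 CPM in its second. The second window stood at 11.2 times the first, the largest ratio among the 33 genes. For FZD1, FZD2 and FZD4 the difference had the same sign in 8 of 8 libraries (adjusted p = 0.0133 each, exact sign-flip test). FZD10 had 1.71 CPM ± 0.592 and 1.48 CPM ± 0.346 and did not pass.

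FZD7, FZD8 and FZD9 had 1 window each, so no comparison within the gene could be made. FZD9, at chr25:34245101-34248100, had the highest first window of all WNT genes, with 4.601, 6.54 and 7.23 CPM in the lowest, median and highest library. It did not differ from FZD5 beyond the spread between libraries, at 6.21 CPM ± 0.992 against 6.11 CPM ± 0.959. The first windows of both lay at the 99.2 percentile of all windows. FZD7 and FZD8 averaged 1.15 CPM each, and FZD7 had the wider spread, from 0.405 to 1.93 CPM.

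FZD3 and FZD6, which act in cell polarity, are longer genes and were low. FZD3 had 0.406 CPM ± 0.120 in its first window and 0.262 CPM ± 0.0806 in 30 others, and only 1 of its 31 windows reached a mean of 1 CPM. FZD6 had 0.681 CPM ± 0.182 and 0.462 CPM ± 0.127. Both were called higher in the first window, in 7 and 8 of 8 libraries (adjusted p = 0.0237 and 0.0133, exact sign-flip test).

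The co-receptors LRP5 and LRP6, which do the same work in canonical signalling, had very different levels. Over all windows LRP5 averaged 3.55 CPM ± 0.634 and LRP6 0.312 CPM ± 0.0966, a ratio of 11.4 that lay between 6.73 and 15.9 in single libraries. In LRP5, 30 of 32 windows had a mean of at least 1 CPM, and in LRP6 0 of 59. The 3 highest windows of all receptors were in LRP5, namely window 15 at 8.36 CPM ± 1.32, window 3 at 7.26 CPM ± 1.43 and window 22 at 6.38 CPM ± 0.876, each with a coding exon. Window 15, at chr29:46520919-46523918, lay at the 99.5 percentile of all windows.

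The first window of LRP5 was lower than the rest, at 2.26 CPM ± 0.602 against 3.59 CPM ± 0.644, in 8 of 8 libraries (adjusted p = 0.0133, exact sign-flip test). LRP6 had 0.317 CPM ± 0.144 and 0.312 CPM ± 0.0986, with 4 libraries on each side. Its highest window reached only 0.910 CPM ± 0.219.

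**Figure D3:**
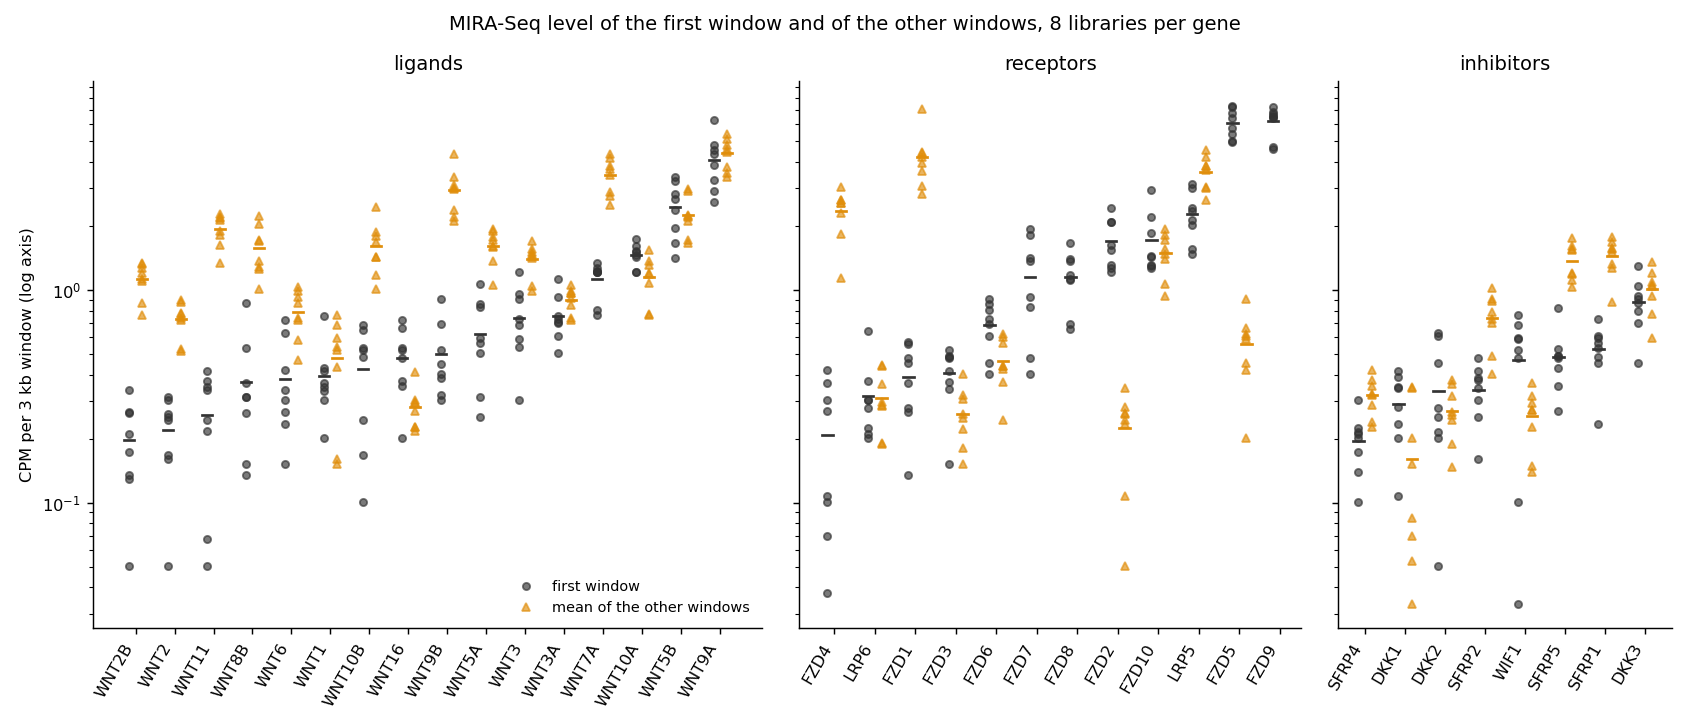
CPM per 3 kb window on a log axis for the first window (circles) and the mean of the other windows (triangles) of each ligand, receptor and inhibitor gene, 8 libraries per gene, with short lines at the means. FZD1 and FZD4 sit low in the first window and high in the other, at ratios of 10.9 and 11.2, and FZD5 and FZD2 the reverse, at 10.97 and 7.58.

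Most of the covered receptor windows were in LRP5, and with LRP5 counted the inhibitor genes were the least covered role. Their first windows lay between 0.196 CPM (SFRP4) and 0.874 CPM (DKK3), so none reached 1 CPM. The 3 highest were DKK3 at 0.874 CPM ± 0.246, SFRP1 at 0.525 CPM ± 0.145 and SFRP5 at 0.482 CPM ± 0.162, and these overlapped between libraries. DKK3 is the divergent member of its family and does not bind LRP6 like the others.

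The SFRP genes, whose products hold ligands away from frizzled, all had a lower first window. SFRP1 had 0.235, 0.549 and 0.733 CPM in the lowest, median and highest library in its first window and 0.878, 1.54 and 1.77 CPM in the others, without overlap. SFRP5 had a ratio of other to first windows of 2.85, SFRP2 of 2.18 and SFRP4 of 1.63, and for all 4 genes the first window was lower in 8 of 8 libraries (adjusted p = 0.0133 each, exact sign-flip test). The highest inhibitor windows were 3 neighbours inside SFRP1, windows 8, 10 and 9 with 3.60 CPM ± 0.928, 3.33 CPM ± 0.753 and 2.93 CPM ± 0.563, over chr27:35916167-35925166 and with no coding exon.

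DKK1 and WIF1 had a higher first window, both from few reads. DKK1, an inhibitor of canonical signalling made in skin of palms and soles, had 0.291 CPM ± 0.105 against 0.161 CPM ± 0.127, from 63 reads over 8 libraries in the first window, and the first window was higher in 6 libraries and level in the other 2. WIF1 had 0.470 CPM ± 0.264 against 0.254 CPM ± 0.0794, also in 6 of 8 libraries. Both had an adjusted p of 0.0437 by the exact sign-flip test, and the WIF1 call was lost on a log2 scale with a pseudocount of 0.1 CPM (adjusted p = 0.136, exact sign-flip test). DKK2, at 0.336 CPM ± 0.205 and 0.270 CPM ± 0.0794, and DKK3, whose other windows averaged 1.00 CPM ± 0.237, did not pass.

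Spearman's correlation between first and other windows was 0.282 over 33 WNT genes and 0.580 over 21419 named genes. Between the number of windows and the level of the other windows it was -0.188 and -0.0586. These are across genes that share the same 8 libraries and are given as descriptions.

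Holstein and Angus were compared window by window with edgeR's likelihood-ratio test over all 115360 windows that passed the CPM filter, to ask whether methylation differed between the breeds. A differentially methylated region (DMR) was a window with FDR < 0.1 and FC ≥ 2. None of the 126 WNT windows tested was a DMR, and 0.231% of all windows tested were. These were 267 windows, 222 of them higher in Angus. The study listed far fewer DMRs at this FDR and fold change, split almost evenly between the breeds. At an unadjusted p under 0.05 there were 9 WNT windows, against 4.94% of all windows. The quasi-likelihood test and DESeq2 also called 0, with 8 and 7 windows at that unadjusted p, against 4.47% and 3.29% of all windows. With total counts only there were 3 such windows and without Holstein 2 there were 4, by the likelihood-ratio test. The shares of all windows were then 2.72% and 4.25%.

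2 WNT windows passed FDR < 0.1 with a fold change below the minimum, and both were higher in Angus. In all windows tested 0.368% passed FDR < 0.1, and 301 of these 425 windows were higher in Angus too. The first of the 2 WNT windows was the last window of WNT6, a ligand of ectoderm, at chr2:107553934-107556933 with coding exon 3. Holstein 1 to 4 had 0.809, 1.34, 1.63 and 1.35 CPM and Angus 1 to 4 had 1.78, 1.88, 1.78 and 2.73 CPM, from 16 to 54 reads per library. The breeds did not overlap. Angus 4 lay above the other Angus libraries on this scale, and after TMM scaling Angus 3 was the highest, at 2.63 against 2.33 in Angus 4. The log2 fold change of Holstein over Angus was -0.79 ± 0.20 (SE), with an FDR of 0.0251 by the likelihood-ratio test in edgeR.

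This FDR was 0.136 by edgeR's quasi-likelihood test and 0.0925 by DESeq2, and over all alternatives it lay between 0.00865 and 1.0. It was 0.441 without the CPM filter and 1.0 with total counts only in edgeR. It was 0.271 without Holstein 4, 0.140 without Angus 3 and 0.236 without Holstein 1 and Angus 3 together, all by the likelihood-ratio test in edgeR, and the log2 fold change kept its sign throughout, between -0.91 and -0.64.

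The second was the first window of FZD2, at chr19:44953675-44956674. Holstein 1 to 4 had 1.31, 1.21, 1.63 and 1.27 CPM and Angus 1 to 4 had 2.09, 2.43, 1.54 and 2.09 CPM. On this scale Angus 3 lay below Holstein 3, and after TMM scaling the breeds did not overlap, at 1.04 to 1.61 in Holstein and 1.78 to 2.28 in Angus. The log2 fold change was -0.75 ± 0.19 (SE), with an FDR of 0.0253 by edgeR's likelihood-ratio test, 0.151 by its quasi-likelihood test and 0.144 by DESeq2. Without Holstein 2, Holstein 4, Angus 1 or Angus 2 the likelihood-ratio FDR in edgeR lay between 0.119 and 0.434, without the CPM filter it was 0.760, and over all alternatives it lay between 0.00668 and 1.0.

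The next windows by p did not pass. FZD1 window 2 had 2.83, 3.07, 4.46 and 3.63 CPM in Holstein and 4.19, 3.96, 4.40 and 7.12 CPM in Angus, and the log2 fold change was -0.62 ± 0.19 (edgeR FDR = 0.192). Without Angus 2 the FDR in edgeR was 0.0305 at a log2 fold change of -0.76, below the 2-fold minimum, and over all alternatives the FDR lay between 0.0305 and 1.0. In the other direction WNT11 window 2 had a log2 fold change of 0.57 ± 0.24, DKK3 window 6 of 0.44 ± 0.21 and LRP5 window 10 of 0.29 ± 0.18, with edgeR FDR of 0.764, 0.946 and 1.0. On the TMM scale Angus lay wholly above Holstein in 3 of the 126 WNT windows and Holstein wholly above Angus in 0, against 1.25% and 1.38% of all windows tested. The third window was WNT7A window 8, with 5.03 to 5.57 in Holstein and 5.71 to 6.73 in Angus, and it was chosen here after its values were seen.

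With all windows of a gene summed, 34 of the 36 WNT genes passed the filter, WNT1 and DKK1 being too low, and 0 were called against 0.0568% of all 19371 genes tested. At an unadjusted p under 0.05 there were 5 WNT genes by the likelihood-ratio test, by the quasi-likelihood test and by DESeq2 alike. The shares of all genes were 2.08%, 1.74% and 1.41%. The count was 0 with total counts only, 1 without Holstein 2, 2 without Angus 3 and 3 without Holstein 1 or without Angus 4. The shares of all genes were then 0.702%, 2.00%, 2.20%, 2.18% and 2.16%, in this order. The 5 of the likelihood-ratio test with TMM were FZD2, FZD1, FZD8, WNT6 and WNT5A, all higher in Angus. The lowest p was that of FZD2, with a log2 fold change of -0.71 ± 0.20 (edgeR FDR = 0.187). FZD1 had -0.57 ± 0.22 and FZD8 -0.63 ± 0.27. The genes with the lowest p on the Holstein side were SFRP2 at 0.17 ± 0.16, DKK3 at 0.08 ± 0.11 and FZD3 at 0.09 ± 0.15.

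The direction of these small differences depended on the scaling. With TMM the log2 fold change was below 0 in 25 of 34 WNT genes, namely 13 of 15 ligands, 10 of 12 receptors and 2 of 7 inhibitors, and in 56.6% of all genes. With total counts only it was below 0 in 10 and above 0 in 24. The median over WNT genes was -0.08 with TMM and 0.07 with total counts, while the median of all genes moved from -0.02 to 0.15, so relative to all genes the WNT median lay lower under both. The estimates over the 34 genes ran from -0.75 to 0.17, within 2-fold, with FZD7 at the lower end at -0.75 ± 0.41.

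**Figure D4:**
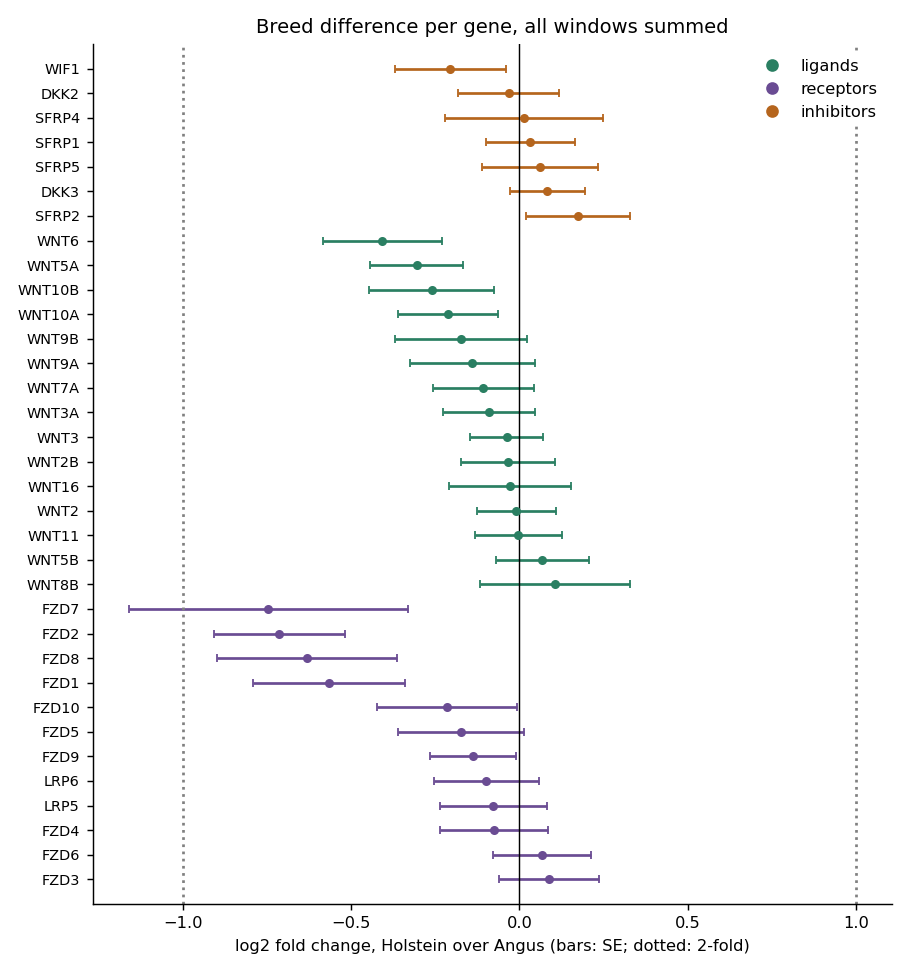
Log2 fold change of Holstein over Angus with its SE for 34 WNT genes, all windows of a gene summed, ordered within ligands, receptors and inhibitors, with dotted lines at 2-fold. Every estimate lies between -0.75 and 0.17, FZD7, FZD2, FZD8 and FZD1 are farthest from 0, and 0 genes passed the test.

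Among first windows alone 11 of 36 WNT genes could be tested, and 0 were called against 0.333% of 5706 genes. At an unadjusted p under 0.05 there were 3 by edgeR's likelihood-ratio test, 2 by its quasi-likelihood test and 2 by DESeq2. The shares of all genes were 5.85%, 5.47% and 3.21%. The count was 1 with total counts only, without Holstein 2 and without Holstein 1 and Angus 3 together, by the likelihood-ratio test. The shares of all genes were then 2.86%, 5.01% and 5.93%. FZD2 again had the lowest, at -0.73 ± 0.20 (edgeR FDR = 0.0435). That passes FDR < 0.1 without the fold minimum, as 0.578% of all first windows did, and over all alternatives it lay between 0.0133 and 0.998. FZD8 and FZD7 followed at -0.57 ± 0.23 and -0.68 ± 0.34. The first windows of all 8 inhibitors, of 12 ligands and of 5 receptors stayed below the filter, and without the filter 0 of the 36 were called.

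The rest of the pathway was followed in 60 further genes, namely 16 for secretion of the ligands and for co-receptors and their modulators, 7 further secreted or membrane inhibitors, 17 of the relay inside the cell, 12 nuclear factors and 8 of the polarity branch. Their first windows averaged 0.939 CPM ± 0.174 and the others 0.998 CPM ± 0.191, below the ligands and above the inhibitors outside the first window. Of 58 genes with more than 1 window and enough reads, 37 had a lower and 10 a higher first window, against 52.8% and 24.4% of all genes. The highest first windows were those of CELSR1, a polarity cadherin, at 7.67 CPM ± 1.44, of NKD2, an inhibitor inside the cell, at 5.54 CPM ± 0.940, and of AXIN1, the scaffold of the complex that breaks down beta-catenin, at 4.88 CPM ± 1.14.

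Of 341 windows tested in these 60 genes, 4 passed FDR < 0.1 without the fold minimum, against 0.368% of all windows. All 4 were higher in Holstein. With the minimum 1 window was a DMR, against 0.231% of all windows. It was the first window of AXIN2, the scaffold that canonical signalling itself induces, at chr19:62858675-62861674 and with coding exon 1. The study also listed this window as a DMR within AXIN2, and not as one in a promoter. Holstein 1 to 4 had 1.77, 2.51, 2.04 and 2.48 CPM and Angus 1 to 4 had 0.733, 1.36, 0.806 and 0.428 CPM, so every Holstein library lay above every Angus library. The log2 fold change of Holstein over Angus was 1.19 ± 0.22 (SE), with an FDR of 1.54e-04 by the likelihood-ratio test in edgeR, 0.0268 by its quasi-likelihood test and 0.00173 by DESeq2. The FDR over all alternatives lay between 2.10e-05 and 0.0268. Without Angus 4 the log2 fold change was 0.95, below the 2-fold minimum, with an edgeR FDR of 0.00199. With all its windows summed AXIN2 had 0.33 ± 0.13 and was not called (edgeR FDR = 1.0).

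**Figure D5:**
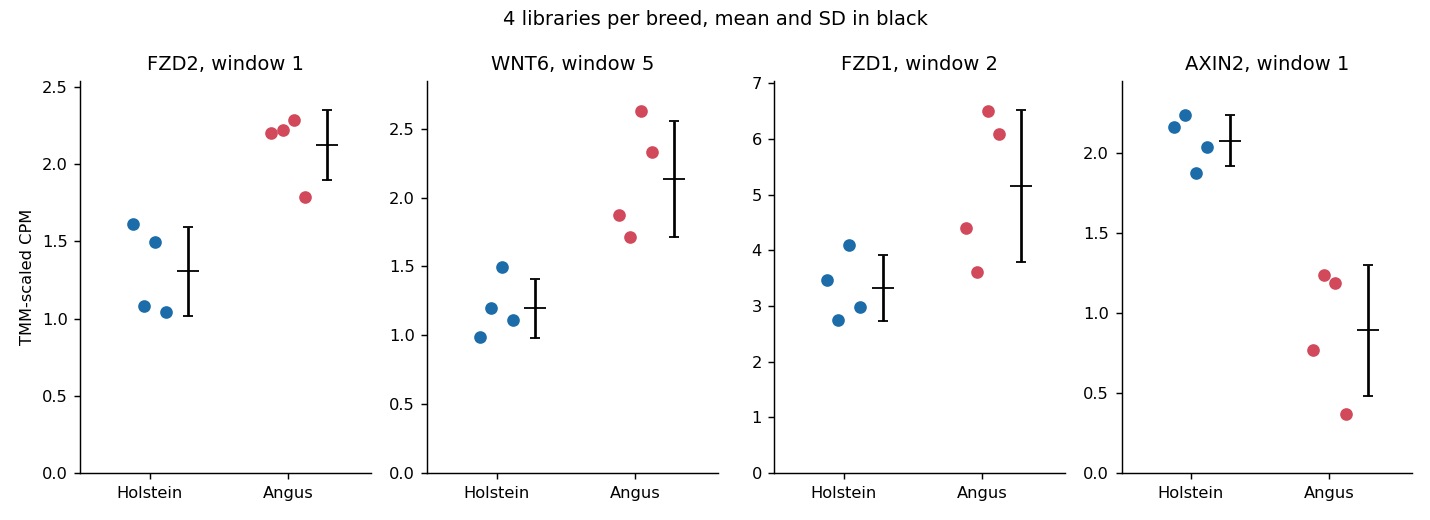
TMM-scaled CPM of 4 Holstein and 4 Angus libraries (points) with the mean and SD of each breed in black, for the first window of FZD2, the last window of WNT6, window 2 of FZD1 and the first window of AXIN2, a pathway gene outside the ligand, receptor and inhibitor roles. The breeds do not overlap in FZD2, WNT6 and AXIN2, and they overlap in FZD1.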

How the data were processed

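MIRA-Seq was performed by the authors on DNA of cultured dermal fibroblasts, 1 library from each of 4 Holstein and 4 Angus animals. The deposited values are raw read counts per 3 kb window of the UMD v3.1 bovine genome, made by the authors with NextGENe 2.3.4 after base calling with CASAVA 1.7, per the labels and the study's methods. The treatment of duplicate and multiply mapped reads is not given in the sources used here, and no input library was used, so CpG density, copy number and pull-down efficiency were not separated from methylation. Windows were assigned to genes by the gene names in the files, of windows up to 3300 bp, and the first window was chosen by strand. Window reads per library ran from 18691111 to 35525554, and CPM used these totals.

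Breeds were compared with edgeR 4.0.16 in R 4.3.3 (generalised linear model likelihood-ratio test, TMM, CPM of 1 or more in 4 or more libraries, Benjamini-Hochberg adjustment over all windows or genes), with FDR < 0.1 and FC ≥ 2 as the call. SE is the log2 fold change divided by the square root of the likelihood-ratio statistic, without sign. First and other windows were compared by an exact two-sided sign-flip permutation test on CPM differences over 8 libraries (256 sign assignments, genes with 24 or more reads, Benjamini-Hochberg adjustment, called at an adjusted p under 0.1), with scipy 1.17.1, pandas 2.3.3 and numpy 2.4.6 in Python 3.11.15. DESeq2 1.42.0, edgeR's quasi-likelihood test, other scalings, other filters, a replicate block and leaving out each library were alternatives. Scripts were tested on simulated data. Every WNT gene was given by its first window and the mean of the others. Some were given only by the ratio of these or within a range of ratios. Single windows were named if they were DMRs, if they were among the 3 highest first or other windows of a role, or if they had 1 of the 3 lowest p in a direction in the breed comparison, per window or per gene. Of the other pathway genes, those with a DMR and the 3 highest first windows were named. Last windows, neighbouring genes and a few further windows were named after their values were seen. The genes, the pathway list, the marker lists and the roles were chosen with earlier results of these data known. Replicate numbers were taken only as names of the libraries. P-values of the breed comparison measure the spread between single libraries of different animals. Those of the sign-flip test rest on how the difference within a library held over the 8 libraries.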

Additional observations from a re-analysis of the deposited data

Results flagged for a closer look

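In 164 groups of 4 libraries of 1 breed, 12 values lay apart from the other 3 libraries by Dixon's test at the 95% level. Chance alone flags about 1 in 20 groups, and WNT genes share the same libraries. No pattern was weighed, and the cause of each was not tested.

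Holstein 1, 1 of the 2 libraries with reads gathered in few windows, was the low value in 5 cases. It had 0.259 CPM over the first windows of the inhibitors, 0.759 CPM in the first window of WNT7A, 1.63 CPM over the other windows of WNT11, 0.0506 CPM in the second window of FZD2 and 1.82 CPM in the second window of FZD4. Angus 3, the other such library, was low over the other windows of the inhibitors at 0.340 CPM and over those of WNT3 at 0.989 CPM. Angus 4, the library with the fewest window reads, was the high value of its breed in the last window of WNT6 at 2.73 CPM, in window 2 of FZD1 at 7.12 CPM, which is also its only other window, and in the first window of WNT3A at 1.12 CPM. These are CPM without TMM scaling, and after it Angus 3 lay above Angus 4 in WNT6, at 2.63 against 2.33, and in FZD1, at 6.50 against 6.09. Angus 1 was high in the second window of DKK1, at 0.349 CPM.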

How the results depend on the processing

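No WNT window, gene sum or first window was called under any alternative that kept the 2-fold minimum. Without that minimum 2 windows and 1 first window passed. Over all windows the number of DMRs was 267 and became 141 with the quasi-likelihood test, 141 with DESeq2, 392 with total counts only, 905 without the CPM filter, 515 at 0.5 CPM, 154 without unplaced scaffolds, 425 without the fold minimum and 145 to 564 with 1 library left out. Gene sums gave 11 calls, and 0 with the quasi-likelihood test, 6 with DESeq2, 30 without the filter, 20 without the fold minimum and 6 to 17 with 1 library left out. First windows gave 19 calls, 60 without the filter and 33 without the fold minimum. With Holstein 1 and Angus 3 both left out, the 3 counts were 642, 19 and 34.

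Deviations of same-numbered Holstein and Angus libraries from their breed means correlated at -0.216, 0.0443, -0.0171 and 0.109. No pairing by number was seen, though so few values cannot exclude it. With a replicate block 0 WNT windows, 0 gene sums and 0 first windows were called, and 346, 12 and 22 in all. FZD1 window 2 then had an FDR of 0.0574 in edgeR, with its fold change below the minimum and an FDR of 0.0305 to 1.0 over all alternatives.

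The FZD3 gene sum ran from -0.034 to 0.17 on the log2 scale with 1 library left out, the first of these without Holstein 2. In the comparison of first with other windows, 16 to 19 WNT genes were called lower and 4 to 10 higher, the 4 being with the second window left out, which also drops the genes with 2 windows. First minus other turned to 0.219 CPM for WNT3A and 0.00126 CPM for DKK3 with the median of the other windows, to -0.0692 CPM for WNT10A with the second window left out, and for LRP6 to -0.00467 on the log2 scale, to -0.0139 CPM without Holstein 1 and Angus 3, which for this comparison was chosen after seeing the data, and to between -0.0450 and 0.0398 CPM with 1 library left out. Medians over windows in place of means gave 0.517 and 1.16 CPM for first and other windows of ligands, 1.14 and 0.351 CPM for receptors and 0.339 CPM for other windows of inhibitors. At these depths a window under about 0.161 CPM rests on 3 reads or fewer in the smallest library.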
